A study of Homo sapiens with 4 samples.

Results

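Ribosomal protein genes encode the proteins of the cytosolic ribosome, the particle that makes all proteins read from nuclear genes. RPS genes give the small subunit, which holds the mRNA, and RPL genes give the large subunit, which joins the amino acids. Most of their mRNAs start with a 5′ terminal oligopyrimidine (TOP) tract, a C followed by a run of pyrimidines, through which mTORC1 signalling and the protein LARP1 set how strongly they are translated. Most of their products are needed in roughly equal numbers, and the genes are commonly expressed together.

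The question was how these genes behaved in MDA-MB-231 cells, an established triple-negative human breast cancer line of mesenchymal character, after long passage in 10 µM cadmium. Cadmium is a toxic metal. It can take the place of zinc in proteins. RNA sequencing was performed on parental cells kept in ordinary medium (control, n = 2) and on cells selected for resistance by serial passage in CdSO4 (cadmium, n = 2). The labels name the controls as biological replicates and the cadmium libraries as replicates. They do not say whether the cadmium libraries came from separately selected cultures, so the p-values measure only the spread between these samples. The controls are called control 2 and control 3, after the numbers in the count table, and the others cadmium 1 and cadmium 2.

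Members were protein-coding genes with an RPL or RPS symbol followed by a number, plus RPSA, RPLP0, RPLP1 and RPLP2. The S6 kinases, RPS19BP1, RPS27L, RPL39L, RPL22L1 and pseudogenes were left out. This gave 87 of the 61541 genes in the table, 34 of the small and 53 of the large subunit. Of these, 77 were core ribosomal proteins, 7 were paralogs (RPL3L, RPL7L1, RPL10L, RPL26L1, RPL36AL, RPS4Y1 and RPS4Y2), and 3 were read-through genes that join a member to the next gene (RPS10-NUDT3, RPL17-C18orf32 and RPL36A-HNRNPH2). No read was found in any library for 6 of the 87 members, namely RPL10L, RPS4Y1, RPS4Y2 and the 3 read-through genes. For the 3 paralogs a count of 0 allows up to 3 reads, or 0.0485 to 0.0578 CPM (counts scaled to a fixed library total). The exons of the read-through genes are shared to at least 99.7% with other genes, where the counting dropped reads, so their 0 sets no limit. RPL3L, the striated muscle form of RPL3, had 5 to 8 reads per library, which was below the filter on mean count, and the other 80 members were all tested.

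The line's labelled identity was checked against marker genes. The mesenchymal markers VIM, CD44, AXL, CAV1 and MSN stood at 378 to 1756 CPM. The hormone receptors ESR1 and PGR, which define luminal breast cells, did not exceed 0.530 CPM. Other luminal markers were not absent, with the epithelial keratin KRT8 at 885 to 1049 CPM and GATA3 at 8.75 to 16.9. EPCAM stood at 41.1 CPM in control 2 and at most 14.1 elsewhere, and CDH1 at 11.1 in control 3 and 1.83 to 3.09 elsewhere. The endothelial gene PECAM1 had 2.73 CPM in control 2 and 11.5 to 15.2 elsewhere, while the endothelial gene CDH5 did not exceed 0.283. The fibroblast gene COL1A1 had 8.54 to 16.8 CPM, while COL1A2, DCN and LUM did not exceed 0.848, 0.0707 and 1.21. The part of these differences in the results was not tested. The leukocyte gene CD3E was at 0, and PTPRC did not exceed 2.60 CPM. Total counts were 51934729 to 61916007 per library. The 2 controls differed far more from each other than the cadmium libraries did. Over 12844 other expressed genes (normalized count averaging 100 or more), the log2 ratio between the 2 controls had a robust SD of 0.57, and that between the 2 cadmium libraries one of 0.16. Counts of 2 libraries of a group gave little precision: standard errors of the members' log2 fold changes were 0.23 to 0.42, with a median of 0.25.

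The starts of the genes show what the members share and the selection did not use. RefSeq promoter windows were matched for 70 of the 87 members on GRCh38.p14. A tract, defined as a C followed by at least 4 letters that are each C or T and beginning within 5 bases of an annotated start on the gene's strand, was found in 53 of 62 core members (85.5%). The same search found one in 6886 of all 27305 genes with a window (25.2%). The windows run from 10 bases before to 20 bases after the start, and capitals mark the tract. The first 6 belong to members at the top or the bottom of the cadmium comparison or of the difference between controls. The last 3 are members in which no tract met the rule, shown because RPL7L1 and RPS4X are also described at length.
RPLP1 chr15:69452808-69452837 plus strand: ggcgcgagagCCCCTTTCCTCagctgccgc
RPL11 chr1:23691796-23691825 plus strand: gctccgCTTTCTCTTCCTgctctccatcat
RPL10 chrX:154398367-154398396 plus strand: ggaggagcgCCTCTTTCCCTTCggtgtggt
RPS18 chr6:33272065-33272094 plus strand: cacttccgCTCTCTCTTCCacaggaggcct
RPL36A chrX:101391001-101391030 plus strand: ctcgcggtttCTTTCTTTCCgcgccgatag
RPL39 chrX:119791611-119791640 minus strand: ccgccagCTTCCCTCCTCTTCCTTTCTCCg
RPL7L1 chr6:42879606-42879635 plus strand: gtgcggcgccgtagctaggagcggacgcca
RPS4X chrX:72277229-72277258 minus strand: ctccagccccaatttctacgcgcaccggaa
RPS26 chr12:56041908-56041937 plus strand: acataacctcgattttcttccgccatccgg

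A match is a run of letters and not a measured start, and the data hold no measure of translation. RPLP1 and RPL10 carry tracts of 11 and 13 letters and lay at the lower end of the cadmium comparison. RPL36A carries a tract of 10 letters and lay at its upper end. The paralog RPL7L1 has no tract in this window.

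Members were abundant in every library. Together they took 4.80% and 4.88% of assigned reads in control 2 and control 3, and 4.69% and 4.90% in cadmium 1 and cadmium 2. The means were 4.84% ± 0.0622 for control and 4.79% ± 0.143 for cadmium (SD, n = 2). Both cadmium values bracketed both control values, and the difference of -0.0444 percentage points was smaller than the spread (two-sided exact permutation test, p = 1). Groups of 2 cannot give an exact p below 0.333. The ratio of large to small subunit reads was 1.85 in control 2, 1.68 in control 3 and 1.71 in both cadmium libraries, so control 2 alone stood higher.

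Levels between genes were compared as normalized counts per kilobase of the gene length in the table, which is the merged length of all annotated exons. The median member stood at 9804 per kilobase, against 329 for other expressed genes. The 5 highest were RPS2, RPL8, RPS18, RPS12 and RPL7A, from 36977 for RPS2 to 33376 for RPL7A. Their SDs over the 4 libraries were 1521 to 4411 per kilobase, so neighbours in this order did not differ beyond their spread. The order depended on the length used. Per kilobase of the main transcript RPS18 led at 117109, followed by RPS2 at 93440, while RPS12 stood at 43884. Among the lowest were RPS10 at 77.7, RPL36A at 107 and RPL17 at 188 per kilobase.

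Low values in these 3 core genes come with overlapping annotation. They were among the 4 core members with a mean normalized count below 1000, where the median core member had 31320. Exons of other genes cover 84.0% of the main transcript of RPS10, 96.9% of RPL17 and 43.8% of RPL36A, and reads in such places were dropped by the counting. Of the 77 core members, 54 shared no exon base of the main transcript and 7 shared over 50%. Rows named as pseudogenes of RPL36A held 1215% as many reads as RPL36A itself, against 640% for RPL17, 278% for RPS10 and a median of 1.33% over members. The counts of these genes are uncertain in level, and how much each of these features contributes was not tested.

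Cadmium-resistant cells and control cells were then compared gene by gene. None of the 80 tested members passed an adjusted p-value below 0.1 in DESeq2, where 1.13% of all 19834 tested genes did (0.6% higher and 0.534% lower). The lowest adjusted p-value was 0.226, for RPL36A. Without adjustment 2 members, RPL36A and RPL7L1, had a p-value below 0.05, against 6.92% of all tested genes. The edgeR quasi-likelihood test also called 0 members, with a lowest adjusted p-value of 0.674 and 3 members (RPL36A, RPL7L1 and RPL10) below 0.05 without adjustment, where the background was 7.39%. It called 0 of all genes as well (0%).

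**Figure D1:**
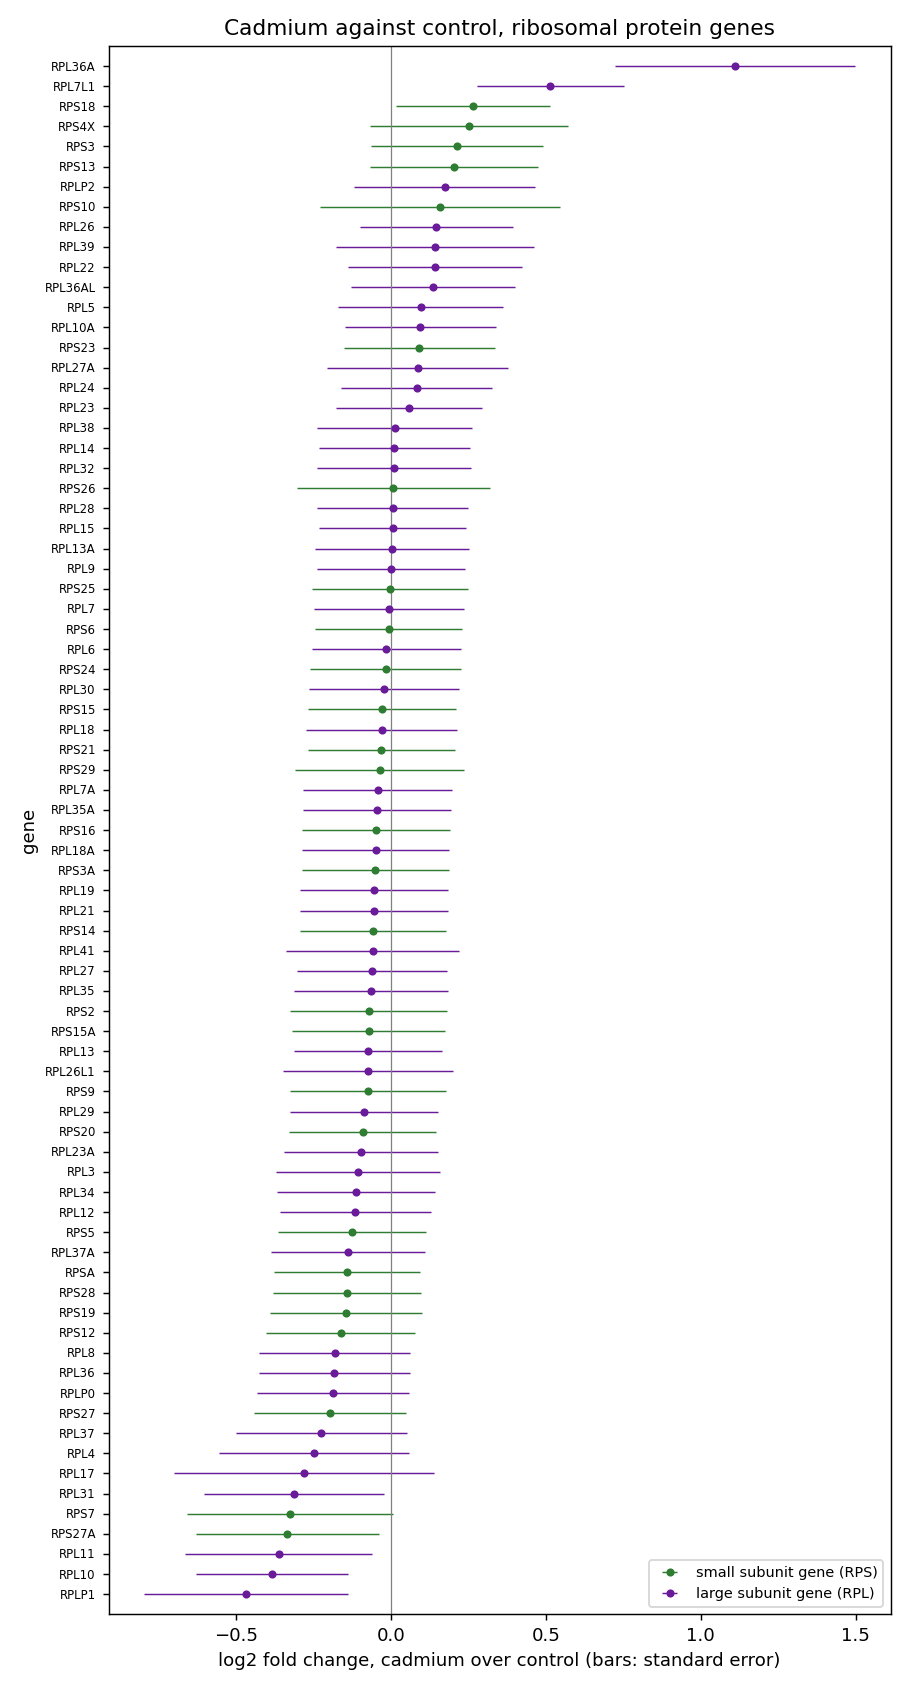
Log2 fold change of cadmium over control for 77 of the 80 tested ribosomal protein genes, ordered from lowest to highest, with bars of 1 standard error (DESeq2, n = 2 per group) and colours for the subunit. Apart from RPL36A (1.11) and RPL7L1 (0.51), all points lie between -0.47 and 0.27.

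The members moved little. Their median log2 fold change was -0.05 (interquartile range -0.13 to 0.01), against -0.02 (-0.31 to 0.27) over all tested genes. Of the 80 members, 64 (80.0%) lay within 0.2 of zero on the log2 scale, where 45.7% of the other expressed genes did. Above a mean of 10000, 80.6% of 72 members lay within 0.2, against 53.3% of 1123 other genes. The 95% interval of the log2 fold change stayed inside a 2-fold change in either direction for 77 of the 80 members and inside a 1.5-fold change for 38. RPL36A, RPLP1 and RPL17 were the 3 whose intervals reached past 2-fold.

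Direction depended on the scaling. With the main size factors 53 members had a value below zero and 27 above it, while upper-quartile factors gave 35 below and 45 above. Removing a trend on gene length gave 38 below and 42 above. With the main size factors the median was -0.05 over 31 small and -0.04 over 49 large subunit genes. In 23 members (28.7%) neither cadmium library fell within the range of the controls, 5 with higher and 18 with lower values. The same held for 40.3% of all tested genes, 20.3% higher and 19.9% lower. The 5 higher members were RPL36A, RPL7L1, RPS18, RPL26 and RPL23. The last 2 were named after their values were seen. The 18 lower members had log2 fold changes of -0.40 to -0.05.

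RPL36A, a zinc-binding protein of the large subunit (ENSG00000241343, chrX:101390824-101396155, plus strand, hg38), had normalized counts of 202 and 337 in the controls and 516 and 649 in the cadmium libraries. All 4 libraries were in the order of their groups, without overlap. The fold change was 2.16 (log2 1.11 ± 0.39 SE, 95% interval 0.35 to 1.87). These counts came from only 214 to 657 reads. Adding the reads of its 52 pseudogene rows lowered the log2 fold change to 0.21 (DESeq2, unadjusted p = 0.57). Its expressed neighbours on the X chromosome had a median log2 ratio of 0.34. The paralog RPL36AL was far more abundant, at 12004% to 30083% of RPL36A per kilobase, and did not show this rise. RPL36AL had normalized counts of 10386 and 12928 in the controls and 12359 and 13275 in the cadmium libraries (log2 0.14). Dropping control 2 moved that value to -0.01, and dropping control 3 moved it to 0.29.

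RPL7L1, a paralog of RPL7 known from ribosome biogenesis (ENSG00000146223, chr6:42879616-42889925, plus strand), had normalized counts of 25022 and 23582 in the controls and 35054 and 34380 in the cadmium libraries. The groups did not overlap and each pair was close. The fold change was 1.43 (log2 0.51 ± 0.24 SE, adjusted p = 0.593). Per kilobase, RPL7L1 reached 32.3% and 33.5% of RPL7 in the controls and 48.7% and 45.6% in the cadmium libraries, while RPL7 itself had a log2 fold change of -0.01 (0.06 without control 2 and -0.08 without control 3). Genes within 20 expressed places on either side of RPL7L1 on chromosome 6 had a median log2 ratio of 0.28 (0.29 against control 3 alone).

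RPS18, a small subunit protein of the head region, followed with 56578 and 60226 in the controls against 65142 and 75225 in the cadmium libraries. Its log2 fold change was 0.27 ± 0.25 SE, and its neighbours on chromosome 6 had a median of 0.24 (0.35 against control 3 alone). The 5 tested members on chromosome 6 were RPL7L1, RPS18, RPS10, RPL10A and RPS12, with log2 fold changes of 0.51, 0.27, 0.16, 0.10 and -0.16. That of RPL10A was 0.18 without control 2 and 0.0035 without control 3, and that of RPS10 was -0.04 without cadmium 2. Other expressed genes of chromosome 6 had a median log2 ratio of 0.18. None of the 5 passed the test.

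RPL10, a late-joining large subunit protein next to the peptidyl transferase centre (chrX:154389955-154409168, plus strand), was lower in both cadmium libraries. Its normalized counts were 39854 and 35797 in the controls and 27896 and 30108 in the cadmium libraries, without overlap. The log2 fold change was -0.38 ± 0.24 SE (adjusted p = 0.896), and its neighbours had a median of -0.18. Against control 3 alone the neighbours stood at -0.06 and RPL10 at -0.30. Exons of other genes cover 53.7% of the main transcript of RPL10, where the counting dropped reads.

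**Figure D2:**
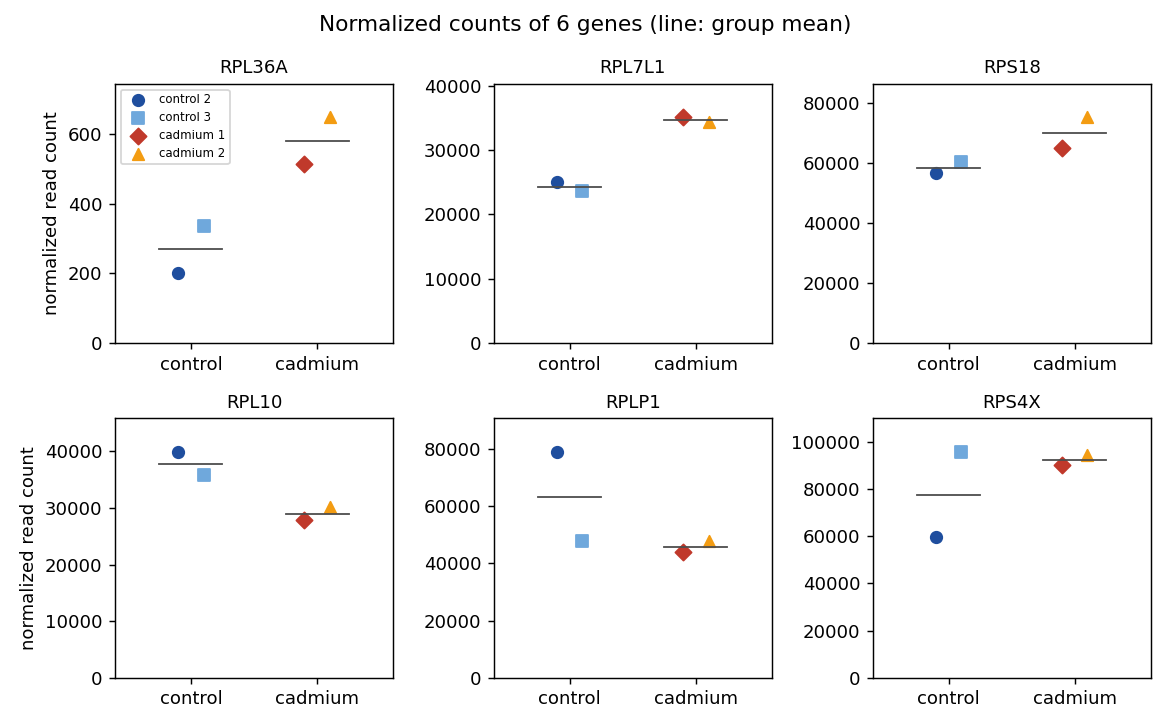
Normalized read counts of 6 ribosomal protein genes in each library, with a line at each group mean and y axes that start at 0. In RPL36A, RPL7L1, RPS18 and RPL10 the groups do not overlap, while in RPLP1 and RPS4X control 3 lies with the cadmium libraries and control 2 lies apart.

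In other members at either end of the comparison the value depended on which control was left out. RPLP1 had 78946 in control 2, but 47792 in control 3 and 43850 and 47888 in the cadmium libraries. Its log2 fold change of -0.47 ± 0.33 SE was the lowest of all members, and became -0.06 without control 2 and -0.79 without control 3. RPL11 had 45401 in control 2 and 28058 to 31213 in the other 3 libraries, and its log2 fold change came to -0.06 with control 2 left out and -0.63 with control 3 left out. RPS27A, which encodes a fusion of ubiquitin with a small subunit protein, had 31263 in control 2 and 20286 to 21615 elsewhere, and its values were -0.04 and -0.59. RPS7 had 35904 in control 2 and 21515 to 24484 elsewhere. Its log2 fold change turned from -0.33 to 0.08 without control 2 and was -0.65 without control 3. RPS4X showed the opposite order, with 59696 in control 2 and 90419 to 95666 elsewhere. Its value turned from 0.25 to -0.05 without control 2 and was 0.62 without control 3. RPS3 and RPS13 had values of 0.21 each, which became 0.01 and 0.03 without control 2 and 0.43 and 0.38 without control 3.

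Between the controls, the log2 ratio of control 3 over control 2 ran from -0.90 for RPL17 to 0.73 for RPL36A. It lay beyond 0.5 in either direction in 14 members (17.5%), against 39.5% of other genes. The robust SD of this ratio over members was 0.21, less than over other genes (0.57). It was also smaller among genes with a mean above 10000, at 0.19 for members and 0.45 for others. The cadmium pair gave 0.05 over members. In that pair cadmium 2 was above cadmium 1 in 75 of 80 members, by a median of 0.10 on the log2 scale. The same was not taken over other genes. This shift within the cadmium pair was larger in size than the members' median log2 fold change of -0.05.

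**Figure D3:**
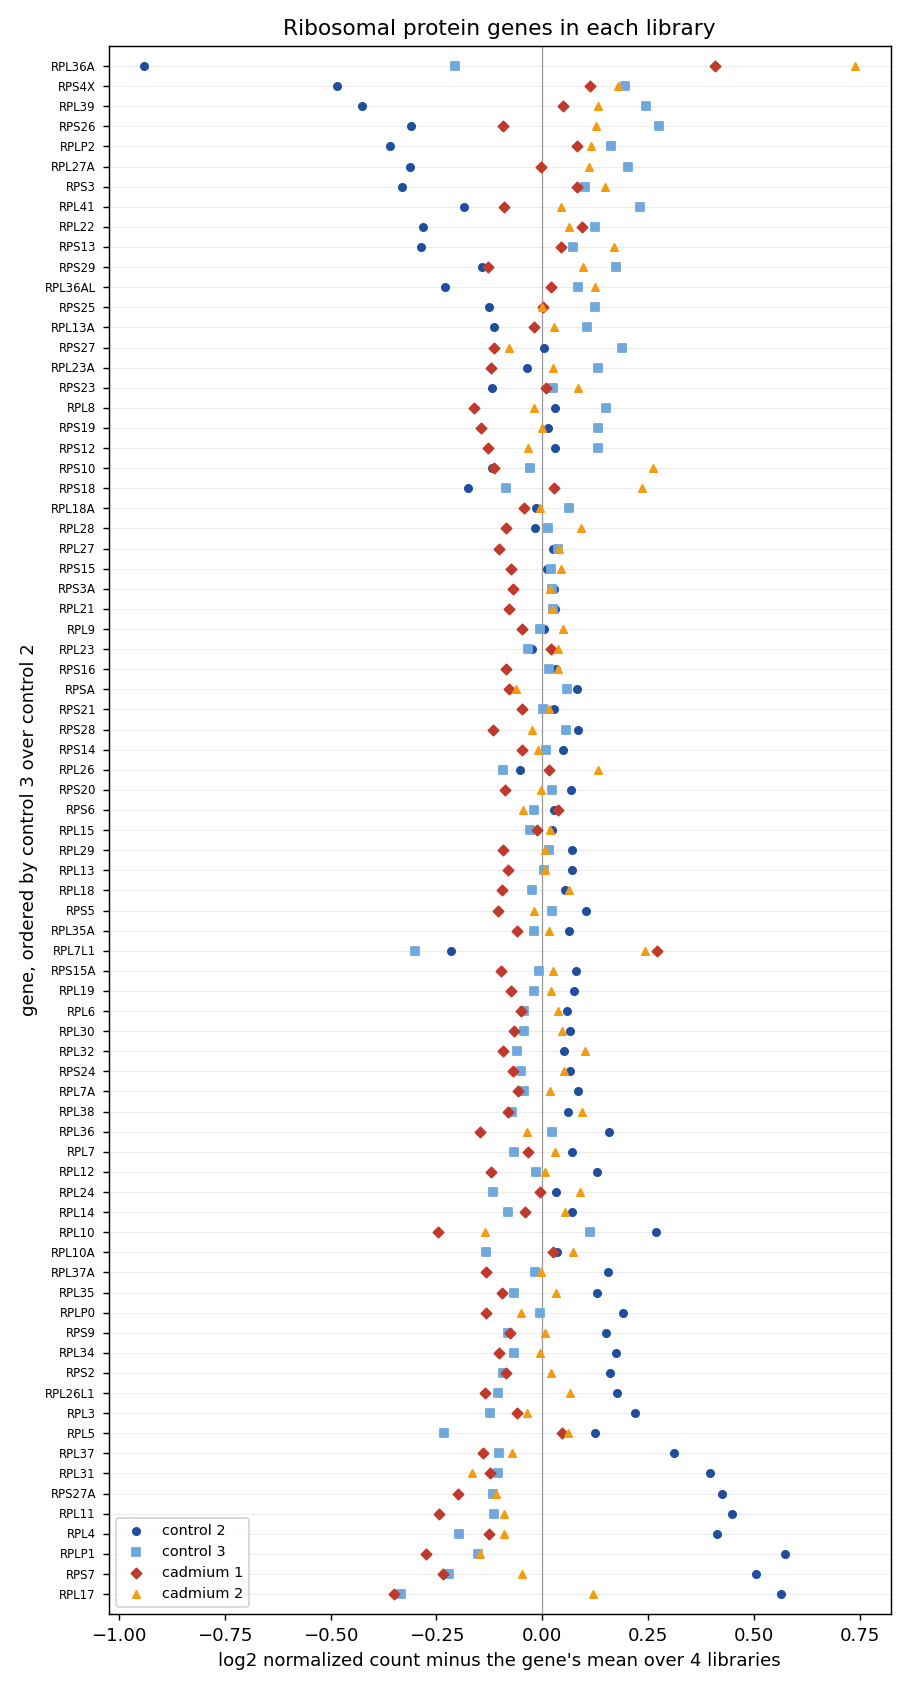
Log2 normalized count of 77 of the 80 tested ribosomal protein genes in each library, as the distance from the gene's mean over 4 libraries, ordered by the ratio of control 3 to control 2. Control 2 lies alone at either end of the order, while RPL36A and RPL7L1 are the genes in which both cadmium libraries lie farthest to the right.

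The ratio between controls tended to follow position in the genome. For each member, the median ratio of up to 20 expressed genes on either side was taken, leaving out other members and ribosomal protein pseudogenes. Across the 80 members the member's own ratio and that of its neighbours had a Pearson correlation of 0.80 and a Spearman correlation of 0.61. Genes share the same libraries and are not independent, so these values are a description. Over all 80 members, 60 had a ratio on the same side of zero as their neighbours' median. Of the 14 members with a ratio beyond 0.5, 13 had neighbours on the same side of zero and 12 lay within 0.2 of their neighbours' median. RPL17 on chromosome 18 had a ratio of -0.90 and neighbours at -0.89. RPS7 on chromosome 2 had -0.72 and neighbours at -0.64, and RPLP1 on chromosome 15 had -0.72 and neighbours at -0.60. RPL39 on the X chromosome had 0.67 and neighbours at 0.62, and RPS26 on chromosome 12 had 0.59 and neighbours at 0.55. RPL4 on chromosome 15 had -0.61 and neighbours at -0.55.

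RPS4X was the exception. Its ratio was 0.68 while its neighbours on the X chromosome stood at -0.09. RPL11 had -0.56 against -0.18 for its neighbours on chromosome 1, and RPL5 had -0.36 against 0.13. The 4 tested members on the X chromosome did not move as 1 block, since RPL10 had -0.15 where RPS4X, RPL39 and RPL36A had 0.67 to 0.73.

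**Figure D4:**
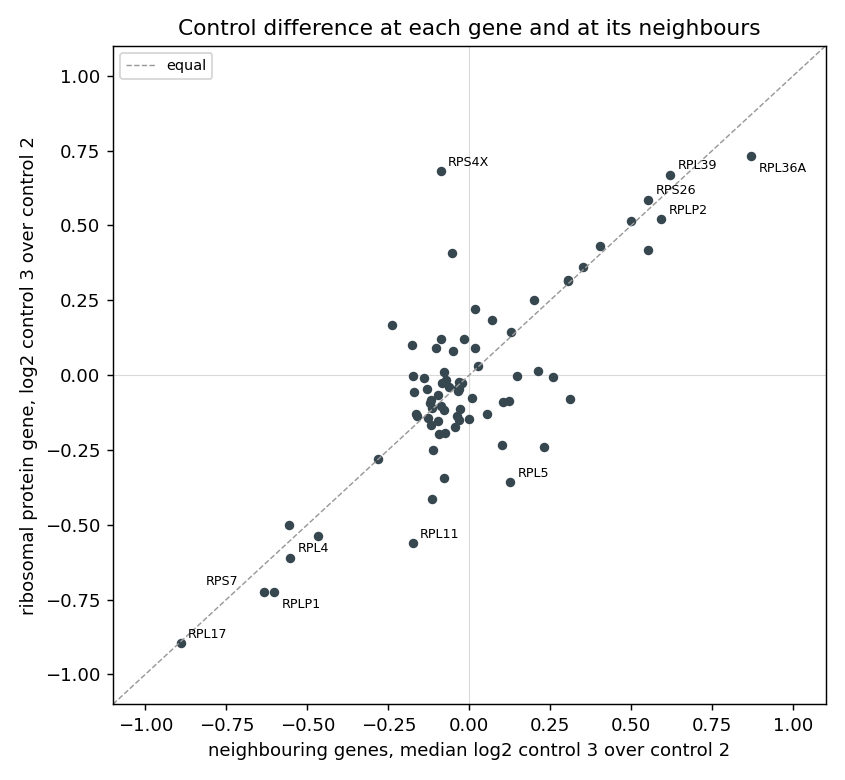
Log2 ratio of control 3 over control 2 at 77 of the 80 tested ribosomal protein genes (y axis) against the median of the same ratio over expressed neighbouring genes (x axis), with a dashed line of equal values. Most genes with a large ratio lie along the line, with RPL17 at one end and RPL36A at the other, and RPS4X stands far above it.

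Leaving out a control changed the calls, as the lone control is then assumed to vary like the cadmium pair. Without control 2, DESeq2 called 5 of 80 members (6.25%), against 15% of all tested genes. RPL36A, RPL7L1 and RPL5 were called higher, where the background was 7.45%, and RPL10 and RPS27 lower, where it was 7.54%. Without control 3 it called 25 members (31.25%), 12 higher and 13 lower, against 31.2% of all tested genes (13.5% higher and 17.7% lower). RPL10, RPL36A and RPL7L1 kept their direction both times. Both fits hold the same cadmium libraries and are not independent, and how often other genes kept their direction was not tested. The log2 fold change of RPL36A was 0.79 without control 2 and 1.51 without control 3. For RPL7L1 the values were 0.56 and 0.46, and for RPL10 they were -0.31 and -0.47. Set against control 3 alone, 67 of 80 members lay within 0.2 on the log2 scale, and the robust SD of their ratios was 0.10. Neither number is given for other genes or against control 2 alone. They therefore do not set members apart from other genes, nor make control 3 the better baseline.

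The acidic stalk of the large subunit, which recruits elongation factors, is built of RPLP0, RPLP1 and RPLP2. RPLP0 had 117045 and 102165 in the controls and 93544 and 99137 after cadmium, which gave a log2 fold change of -0.19 (-0.09 without control 2 and -0.29 without control 3). RPLP2 had 21956 in control 2 but 31512 in control 3, 29842 in cadmium 1 and 30500 in cadmium 2. Its log2 fold change was 0.17 and turned to -0.06 without control 2, while it was 0.45 without control 3. Within this small complex RPLP1 was therefore highest and RPLP2 lowest in the same library, control 2. RPL5 and RPL11 carry the 5S ribosomal RNA and, when unassembled, bind the p53 regulator MDM2. RPL5 had 55283 and 43115 in the controls and 52344 and 52862 in the cadmium libraries. Its log2 fold change of 0.10 and that of RPL11, -0.36, did not pass the test. The value of RPL5 was 0.29 without control 2 and -0.08 without control 3.

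A list of 7 members with a zinc-binding fold (RPS26, RPS27, RPS27A, RPS29, RPL36A, RPL37 and RPL37A) was examined because cadmium is a competitor of zinc. RPL36AL, the paralog of RPL36A, was not on this list and had a log2 fold change of 0.14. None of the 7 was called. They had a median log2 fold change of -0.14 (-0.05 without control 2 and -0.11 without control 3), and 2 of 7 lay above zero, against 27 of 80 over members. RPS27 had 26398 and 30000 in the controls and 24301 and 24921 after cadmium, and its log2 fold change was -0.20 (adjusted p = 1.00, DESeq2). Leaving out control 2 gave -0.29 (adjusted p = 0.0718), and leaving out control 3 gave -0.11 (adjusted p = 0.562). RPS26, which contacts the mRNA exit channel, had 9876 and 14831 in the controls and 11486 and 13370 in the cadmium libraries, which lay between them. RPS29 had 11703 and 14574 against 11825 and 13810, again inside the control range. RPL37 and RPL37A had log2 fold changes of -0.22 and -0.14, which became -0.0042 and -0.05 without control 2 and -0.43 and -0.23 without control 3.

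The same comparison in the genes left out by symbol gave wider movement. FAU, which encodes a small subunit protein fused to a ubiquitin-like protein, had a log2 fold change of -0.38 (-0.09 without control 2 and -0.63 without control 3). RPL39L, the germline-enriched paralog of RPL39, had 2422 and 2475 in the controls and 1580 and 1851 in the cadmium libraries, without overlap (log2 fold change -0.51, adjusted p = 0.718). Per kilobase it reached 45.1% and 29.0% of RPL39 in the controls and 21.2% and 23.4% in the cadmium libraries. RPL22L1, the paralog of RPL22, had 3868 in control 2 and 1238 to 1626 in the other libraries, so that its level per kilobase was 316% of RPL22 in control 2 and 76.2% to 105% elsewhere. RPS27L, a p53 target and paralog of RPS27, had 3209 in control 2 and 1674 to 1724 elsewhere. Without control 2 the log2 fold change of RPL22L1 turned from -0.76 to 0.28 and that of RPS27L from -0.52 to 0.02. Without control 3 they were -1.37 and -0.93.

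Other genes of protein synthesis were described from lists of known function. None was called in any of the lists with DESeq2 or edgeR. Without adjustment, DESeq2 gave a p-value below 0.05 to 1 translation factor, and edgeR to 2 translation factors, 2 mitochondrial ribosomal proteins and 1 gene of RNA polymerase I. The background over all tested genes was 6.92% with DESeq2 and 7.39% with edgeR, so these few genes set no list apart. The median log2 fold change was -0.09 over 77 mitochondrial ribosomal proteins, 0.06 over 39 translation factors, 0.03 over 42 ribosome biogenesis factors and 0.04 over 15 genes of RNA polymerase I, which transcribes ribosomal RNA. It was -0.05 over 14 snoRNA host genes, 0.02 over 18 regulators of TOP mRNAs and 0.06 over 14 genes of ribosome quality control. In 6 of the 7 lists the sign of the median depended on which control was left out. Without control 2 and without control 3 they were 0.08 and -0.23 for mitochondrial ribosomal proteins, 0.17 and -0.0022 for translation factors, and 0.21 and -0.19 for biogenesis factors. They were 0.09 and -0.23 for RNA polymerase I, -0.14 and 0.09 for snoRNA hosts, 0.10 and -0.09 for regulators of TOP mRNAs, and 0.0090 and 0.09 for quality control. Taking from each list the gene whose adjusted p-value was lowest, the largest change was in EEF1A2, the tissue-restricted form of elongation factor 1A. It had 8754 and 4866 in the controls and 3439 and 3069 after cadmium, and its log2 fold change was -1.07 ± 0.36 SE (DESeq2, adjusted p = 0.175). It was -0.58 without control 2 and -1.44 without control 3.

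Of these genes, 4 lie on chromosome 6, as RPL7L1 does, and none passed the test. BYSL, a factor of small subunit assembly, had 4651 and 2992 in the controls and 5834 and 5605 after cadmium, which gave a log2 fold change of 0.58 (0.93 without control 2 and 0.29 without control 3). POLR1C, a subunit shared by RNA polymerases I and III, had a value of 0.49 (0.65 and 0.34). The snoRNA host gene SNHG5 had 0.56 (0.34 and 0.80) and the mitochondrial ribosomal protein MRPS10 had 0.43 (0.36 and 0.50). RPS6KB2, an S6 kinase gene, had 4852 in control 2 and 2264 to 2575 elsewhere, and its value went from -0.67 to -0.15 without control 2 and to -1.07 without control 3. EIF2AK4, the kinase GCN2 that senses stalled ribosomes and amino acid lack, had 0.29 (0.38 and 0.20).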

How the data were processed

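The authors mapped RNA-seq read pairs on hg38 using HISAT2, counted them on Ensembl gene models using featureCounts 2.0.1, and deposited the raw counts (study methods and file header). The command named only annotation and output, so default settings held: strand was ignored, each mate was counted, and reads that mapped to several places or overlapped several genes were dropped. Total counts were 51934729 to 61916007 per library. Limits for counts of 0 cover counting error only, while intervals of fold changes include the spread between libraries. Control columns carry numbers that do not match the labels and were given the group without a replicate number. Symbols matched 61369 of 61541 genes. Coordinates are those of the table, and promoter sequences are from RefSeq (GRCh38.p14).

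DESeq2, the study's tool (here 1.42.0 in R 4.3.3, design: group, Wald test, two-sided, Benjamini-Hochberg over all tested genes, adjusted p below 0.1, the default of the tool), was fitted on the whole table, with a filter at a mean normalized count of 7.65. Size factors were 1.06, 0.940, 1.00 and 1.01. Members and gene lists were chosen with earlier results of these data known. Named genes were the called members, the 6 highest and 6 lowest fold changes, the highest and lowest levels per kilobase, the 4 largest control ratios in each direction, members on chromosomes 6, 18 and X, zinc-binding, stalk, 5S and paralog members, and per list the called genes or the one with the lowest adjusted p-value. Values of 3 tested members and of some other genes that the rule names are not reported here, though counts over members include them. RPL3L was among the control ratios by this rule but was set aside for its few reads. Ratios between libraries used log2 of the normalized count plus 1, and a robust SD scales the median absolute deviation. Alternatives were edgeR 4.0.16 (quasi-likelihood, TMM), limma 3.58.1 (voom), other size factors and filters, length correction, halved counts and leaving out each library. Adding pseudogene reads and comparing with neighbours were chosen after seeing the data. Scripts were tested on simulated data.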

Additional observations from a re-analysis of the deposited data

How the results depend on the processing

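The count of members called stayed at 0 in 11 other settings of test, scaling, filter, length correction, halved counts and threshold, and was 0 to 25 when a library was left out (0 without either cadmium library). The count over the lists of other protein synthesis genes stayed at 0 in 7 settings and was 0 to 82 when a library was left out, with 31 of 224 tested (13.8%) without control 2 and 82 (36.6%) without control 3, where 15% and 31.2% of all genes were called. Several of these counts of 0 carry little weight. With edgeR and with limma-voom 0 of all 19241 genes were called, so those settings say nothing particular about members or lists. An adjusted p below 0.05 is stricter than the main threshold and could only give 0. The same holds for leaving out read-through genes and paralogs. The share of all genes called without either cadmium library is not given here. The members' median log2 fold change was -0.05, and became 0.012 with upper-quartile factors and 0.0058 after removal of a length trend. It ran from -0.11 to -0.0080 over the libraries left out, with -0.11 without cadmium 2. The difference in share of assigned reads ran from -0.0938 to -0.0215 percentage points over 5 other denominators and scales, and from -0.146 to 0.0567 when a library was left out, positive only without cadmium 1. The 12 members with the highest and lowest fold changes were chosen from the same libraries that the other settings reuse, so a kept sign carries little weight. The sign was kept in 96 of 96 values from other settings, which include RPL36A at 0.21 with pseudogene reads added (1.11 in the main fit). With a library left out the sign was kept in 46 of 48. The exceptions, both without control 2, were RPS7 at 0.080 and RPS4X at -0.051, whose values ran from -0.65 to 0.080 and from -0.051 to 0.62 over the libraries left out. The cause was not tested.

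No paired analysis was possible because only 1 of the labels' 2 replicate numbers appears among the controls in the table.

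With 2 libraries per group and a standard error of at least 0.23, fold changes of the size most members showed were not detectable here. RPL36A, RPL17 and RPS10, whose exons are shared and whose pseudogene rows hold more reads than they do, rest on few reads. This does not hold for all members with shared exons, as RPL10 had 28029 to 42119 reads. A member's share of RNA does not give the number of ribosomes or the rate of translation.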

Other observations

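Ribosomal protein pseudogenes made up 1604 rows of the table, of which 739 had at least 1 read. Together they took 0.187% and 0.192% of assigned reads in control 2 and control 3, and 0.187% and 0.188% in cadmium 1 and cadmium 2, so their share differed by less than the spread between controls. The 52 rows named after RPL36A held 3583 reads in control 2 and 6134 in control 3, against 5379 and 5624 in the cadmium libraries. As in RPL36A itself control 2 was lowest, but unlike in RPL36A control 3 was the highest. The 49 rows named after RPL17 held 4565 reads in control 2 and 2331 to 2618 in the other 3 libraries, which is the order of RPL17 between the controls. Reads in such rows cannot be assigned to the parent or the copy with certainty.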
